A study of Rattus norvegicus with 4 samples.

Results

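This comparison set liver RNA of wild-type rats with steatohepatitis that received luteolin in the diet against that of wild-type rats on the same diet without it. It rested on 2 single-colour arrays, 1 a side, of the 4 in the study. All rats were Sprague-Dawley, received an intraperitoneal injection of diethylnitrosamine at 10 weeks of age and were fed methionine-choline deficient diet for 12 weeks, so the array without luteolin is also from diseased liver. The other 2 arrays were from rats carrying a dominant negative transgene of connexin 32, a hepatocyte gap junction protein, without and with luteolin. Not given in the sources used here are the rats' sex, the dose of luteolin, the transgene's promoter, and whether RNA of several rats was pooled for an array. Probes were kept if the authors' files list a background-subtracted value on both wild-type arrays, which held for 14898 of 20174 probes and, with the brightest probe of each gene, for 14803 of 20026 genes. With 1 array a side there is no replicate check and no test, so genes are described only as higher or lower on the luteolin array, and a difference may be that of the animals or of the arrays.

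Diethylnitrosamine is a liver carcinogen, and the methionine-choline deficient diet causes fat build-up, inflammation and scarring of the liver. Luteolin is a flavonoid of many edible plants. In rat liver many secreted proteins and cytochromes P450 differ between the sexes because growth hormone is released in pulses in males and more steadily in females. Pulses activate the transcription factor STAT5b in hepatocytes, and androgens act partly through this pattern. Chemical carcinogenesis in rat liver is followed with glutathione S-transferase P (Gstp1), an enzyme that is scarce in normal hepatocytes and abundant in preneoplastic foci.

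The genes furthest apart were the alpha-2u globulins, small urinary carrier proteins that male rat liver secretes in quantity, which were higher with luteolin. Shown are the promoters of 2 of them, of the male-specific P450 Cyp2c11, of Gstp1, among the genes furthest lower, and of its neighbour Gstp3. These promoters belong to genes outside the stretches of low spots described further on and were chosen after values were seen. Each is the 300 bases from 250 before to 50 after the RefSeq start of the gene, on GRCr8, read 5′ to 3′ along the gene's strand. Capitals mark matches to TTCNNNGAA (the STAT5 motif), TGACNNNGC (the core of the antioxidant response element) or TATAAA (the TATA box), searched on both strands.
Mup4l1: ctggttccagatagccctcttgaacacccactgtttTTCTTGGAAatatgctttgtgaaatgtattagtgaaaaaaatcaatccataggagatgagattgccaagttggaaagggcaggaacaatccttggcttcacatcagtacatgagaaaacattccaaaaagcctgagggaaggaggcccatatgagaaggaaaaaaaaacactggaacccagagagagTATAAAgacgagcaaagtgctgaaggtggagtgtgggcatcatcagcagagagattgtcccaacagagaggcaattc
Mup5: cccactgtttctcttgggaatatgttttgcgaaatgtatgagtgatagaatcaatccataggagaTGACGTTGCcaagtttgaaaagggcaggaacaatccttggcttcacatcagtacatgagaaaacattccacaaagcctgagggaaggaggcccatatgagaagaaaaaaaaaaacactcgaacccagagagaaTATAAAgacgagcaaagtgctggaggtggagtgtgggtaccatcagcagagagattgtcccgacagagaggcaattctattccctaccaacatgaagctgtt
Cyp2c11: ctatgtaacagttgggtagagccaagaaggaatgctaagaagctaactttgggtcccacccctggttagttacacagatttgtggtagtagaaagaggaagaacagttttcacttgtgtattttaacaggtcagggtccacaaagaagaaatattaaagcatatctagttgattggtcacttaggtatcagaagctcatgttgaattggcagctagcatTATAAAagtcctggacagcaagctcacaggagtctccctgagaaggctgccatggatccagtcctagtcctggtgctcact
Gstp1: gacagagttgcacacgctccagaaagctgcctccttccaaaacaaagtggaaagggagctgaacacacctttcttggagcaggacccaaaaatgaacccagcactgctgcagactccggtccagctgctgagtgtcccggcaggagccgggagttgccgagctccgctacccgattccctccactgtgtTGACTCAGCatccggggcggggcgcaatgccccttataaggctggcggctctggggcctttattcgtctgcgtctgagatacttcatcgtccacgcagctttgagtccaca
Gstp3: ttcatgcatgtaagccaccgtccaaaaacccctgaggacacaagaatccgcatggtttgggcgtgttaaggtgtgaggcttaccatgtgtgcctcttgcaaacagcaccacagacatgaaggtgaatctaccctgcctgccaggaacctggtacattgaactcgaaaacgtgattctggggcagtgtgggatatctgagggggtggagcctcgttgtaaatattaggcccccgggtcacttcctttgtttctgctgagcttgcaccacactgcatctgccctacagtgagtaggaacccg
These lie at chr5:80226485-80226784 (Mup4l1, minus strand), chr5:79999646-79999945 (Mup5, minus), chr1:246174966-246175265 (Cyp2c11, plus), chr1:210769656-210769955 (Gstp1, minus) and chr1:210787635-210787934 (Gstp3, minus). An alignment of the Mup4l1 and Mup5 windows matched 255 of the 300 bases of each. The windows are offset, with TATAAA beginning at -27 in Mup4l1 and at -52 in Mup5, so not all 300 bases can align. The STAT5 motif matched in Mup4l1 alone of the 5, beginning at -214 from the start, and the antioxidant response core matched in Mup5 at -185 and in Gstp1 at -61. The windows of Akr1b8, Gsta5, Pbsn and Cyp2c7, described further on, are not shown and matched neither of these motifs. Those genes also lie outside the stretches of low spots, with ratios further from 0 than that of Gstp3. Over 33469 rat promoter windows of this length, 8.87% held the STAT5 motif, 12.1% the antioxidant response core and 14.2% TATAAA. Over the 10574 windows of genes measured here the shares were 7.19%, 14.3% and 8.56%. A match describes letters and does not show that a factor binds there.

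Ratios are log2 of luteolin over no luteolin after background correction and quantile normalization across the 4 arrays, while the levels given in intensity units are the authors' background-subtracted values, which are not scaled between arrays. The wild-type luteolin array was the brighter of the pair, so a gene with a ratio near 0 has more units there: Gjb1, which encodes connexin 32, read 1158 units without and 1535 with luteolin at a normalized log2 level of 10.40 on both. Of the 14803 genes, 10 (0.0676%) were higher by 2-fold or more with luteolin and 16 (0.108%) were lower. At 1.5-fold the counts were 44 (0.297%) higher and 56 (0.378%) lower, or 0.676% either way. These too depend on the scaling and on the offset described below. They were 320 higher and 23 lower with each array centred on its median. Without an offset they were 1402 and 346 in quantile-normalized background-subtracted values, and 1489 and 354 in the deposited normalized values. Limited to genes of at least 50 units on both arrays, chosen after seeing the data, the deposited values gave 357 and 41. With median centring all 44 of the higher genes stayed past 1.5-fold, but 33 of the 56 lower genes did not, among them Lyz2, Krt19, Vim, Cyp17a1, Gpx2, Hamp and Fgf21. The median ratio was 0, and 90% of genes lay between the 5th percentile at -0.23 and the 95th at 0.23. The share of higher genes among those past 2-fold, 38.5% here, was 69.7% when each array was centred on its median (23 higher, 10 lower) and 75.4% in the deposited normalized values (279 higher, 91 lower), where the median of all genes itself was 0.19. An offset of 50 units was added before the log, which shrinks ratios, most of all for dim genes: 8648 of the 14803 genes were under 50 units on at least 1 of the 2 arrays. Not every ratio given is smaller in size for it. Akr1b8 lay at -1.90 here and at -2.04 in background-subtracted values without offset. Gsta5, a bright gene, lay at -1.12 here, at -1.09 in those values and at -0.89 in the deposited ones.

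**Figure D1:**
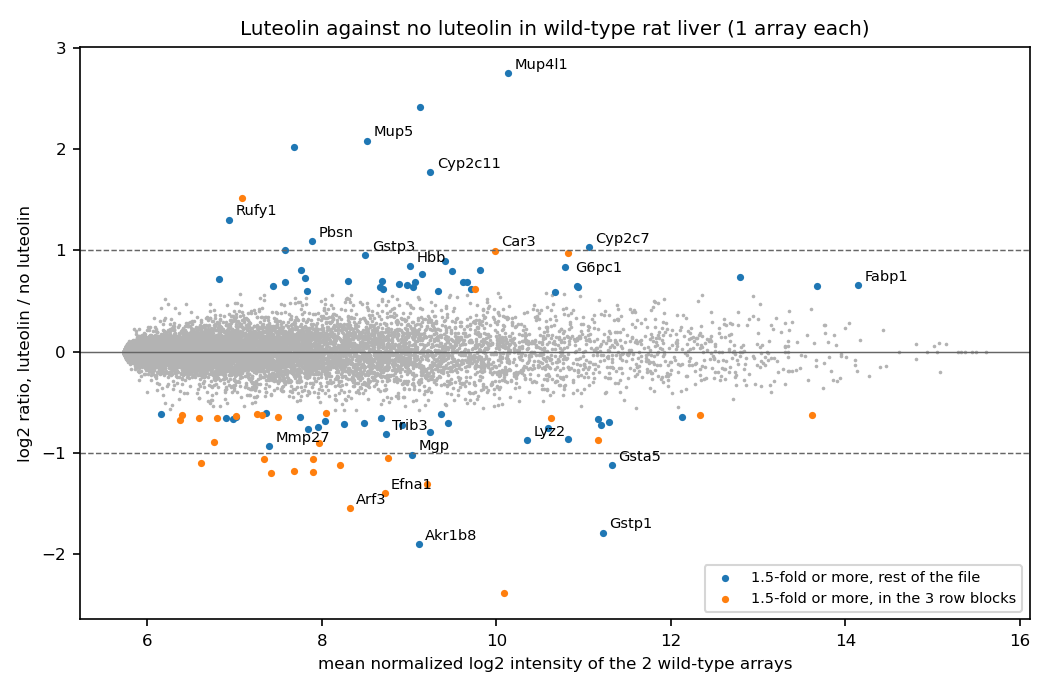
Each point is 1 of 14803 genes, with the mean normalized log2 intensity of the 2 wild-type arrays across and the log2 ratio of luteolin to no luteolin upward; dashed lines mark 2-fold. Alpha-2u globulins (Mup4l1 at 2.75) stand highest, and Akr1b8 (-1.90) and Gstp1 (-1.79) are among the lowest; orange points lie in 3 stretches of the file where low spots cluster.

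Hepatocyte genes were measured on both arrays. Of 24 hepatocyte markers, 21 were on the array and all 21 were above background on both, with a median ratio of 0.11 and none past 1.5-fold. Albumin (Alb), among the brightest genes, read 39290 and 51570 units at a ratio of 0.00. Quantile normalization gives equal ranks equal values, so at the top of the range such a ratio can reflect an unchanged rank alone. Ahsg, which encodes the plasma protein fetuin-A, read only 8.21 and 9.46 units, near background. In whole liver, fewer cells of a type and less RNA per cell cannot be told apart.

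Male-predominant liver genes were higher with luteolin as a group. Of 13 measured members, 12 had a ratio above 0 (49.9% of all genes did), 6 were higher by 1.5-fold or more and 0 lower, and the median was 0.51. The list was drawn up with results of these data known, and its median lay between 0.43 and 0.79 relative to all genes over the alternative settings. The rats' sex on each array was not stated in those sources, and its part in these ratios was not tested.

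Mup4l1, a major urinary protein gene, read 342 units without luteolin and 3409 with it. Its ratio of 2.75, or 6.75-fold, was the highest of all named genes. The transgenic arrays held log2 levels of 10.90 without and 9.74 with luteolin, both between the wild-type levels of 8.76 and 11.51. Mup5 read 112 units without and 817 with luteolin (ratio 2.09, 4.25-fold), and its transgenic levels of 8.95 and 8.54 also lay between the wild-type levels of 7.48 and 9.56. For both genes the wild-type array without luteolin was thus the lowest of the 4 and the wild-type luteolin array the highest.

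In all, 5 probes that the files describe as alpha-2u globulin or major urinary protein had ratios from 1.52 to 2.75. The gene copies are near-identical, so their probes may read the same transcripts and are not separate observations. In the transgenic pair the same 5 probes lay below 0, from -0.36 to -1.16. Rat urinary proteins 1, 2 and 3 had smaller ratios, from 0.64 to 0.74. Probasin (Pbsn), a lipocalin known from the rat prostate, read 98.3 units without and 338 with luteolin, a ratio of 1.10.

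Cyp2c11, the main male-specific P450 of rat liver and a steroid hydroxylase, read 248 units without and 1248 with luteolin, a ratio of 1.78 or 3.42-fold. Its log2 level was 10.13 on the wild-type luteolin array and 8.36, 8.18 and 8.52 on the wild-type, transgenic and transgenic luteolin arrays, so it was high on that array alone. Carbonic anhydrase 3 (Car3), abundant in male rat liver, read 589 and 1612 units (ratio 1.00) and was likewise high on that array alone. The estrogen sulfotransferase Sult1e1 read 552 and 1148 units (0.62), against -0.88 in the transgenic pair. Akr1c12, Cyp2a2 and the steroid dehydrogenase Hsd3b5 had ratios of 0.51, 0.44 and 0.39, and Cyp3a18 at -0.12 was the member below 0.

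Genes known as higher in females did not lie opposite. Of 11 measured members 9 were above 0, with a median of 0.15, 1 past 1.5-fold higher and 1 lower. Cyp2c7, a retinoid-hydroxylating P450, read 1302 units without and 3596 with luteolin (ratio 1.03, 2.05-fold), and its transgenic ratio was 1.23. Its levels were 10.54 and 10.11 on the arrays without luteolin and 11.58 and 11.34 on those with it. Both luteolin arrays thus lay above both arrays without it, though the share of all genes with such an order is not given here. Steroid 5-alpha-reductase (Srd5a1) and the monooxygenase Fmo1 had ratios of 0.49 and 0.45. Cyp17a1, which makes androgen precursors, was lower at 666 and 471 units (-0.80), and at -0.60 in the transgenic pair.

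Among 21 measured genes of growth hormone signalling the median ratio was 0.04, with 13 above 0 and 1 past 1.5-fold. That gene was Bcl6, a repressor with male-biased expression in rodent liver, at 109 and 269 units (ratio 0.73, and -0.32 in the transgenic pair). Insulin-like growth factor 1 (Igf1), the main secreted product of growth hormone action, read 3804 and 7182 units, a ratio of 0.56. The growth hormone receptor (Ghr) and the IGF carrier Igfals had ratios of 0.28 and 0.41. Igfbp2 and Igfbp1, binding proteins of IGF, lay at -0.33 and -0.28. The feedback genes Socs2 and Cish were dim, at 25.7 and 15.8 units without luteolin, with ratios of 0.06 and 0.04.

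**Figure D2:**
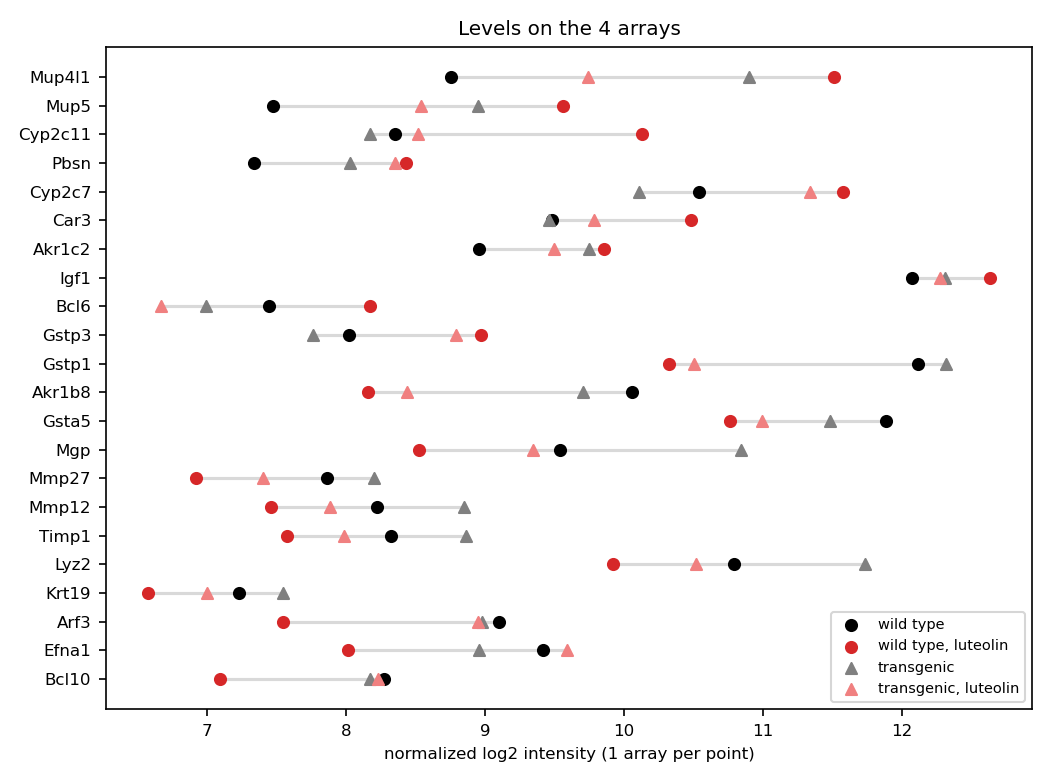
Normalized log2 intensity of 22 genes on each of the 4 arrays, 1 point an array (circles wild type, triangles transgenic, red shades luteolin). Cyp2c11 is high on 1 array, that of wild type with luteolin, Gstp1 and Akr1b8 are low on both luteolin arrays, and Arf3 and Bcl10 are low on that same array alone.

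Lower with luteolin were 3 enzymes that detoxify electrophiles and aldehydes. Gstp1 read 3946 units without and 1457 with luteolin, a ratio of -1.79 (3.46-fold lower). Its levels were 12.12 and 12.32 on the wild-type and transgenic arrays without luteolin and 10.32 and 10.51 with it. Both luteolin arrays thus lay below both arrays without it, though the share of all genes with such an order is not given here. The aldo-keto reductase Akr1b8 read 907 and 265 units (-1.90, 3.73-fold lower), with levels of 10.06 and 9.70 without and 8.16 and 8.44 with luteolin. Gsta5, a glutathione transferase that conjugates aflatoxin epoxide in rats, read 3288 and 1975 units (-1.12), and -0.49 in the transgenic pair.

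The other glutathione transferases did not follow Gstp1. Of 21 measured, 13 were above 0 and 8 below, with a median of 0.08. Gstp3, its neighbour in the genome, read 187 and 521 units and was higher (ratio 0.95, and 1.03 in the transgenic pair). Gstm1 and Gsta1, abundant liver forms, had ratios of -0.08 and 0.27.

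Of 26 measured antioxidant genes linked to the transcription factor Nrf2, 19 lay below 0, with a median of -0.06. Relative to all genes that median was above 0 under 1 alternative, each array centred on its median (0.09). Besides Akr1b8, the glutathione peroxidase Gpx2 read 681 and 556 units (-0.62). The quinone reductase Nqo1 lay at -0.40 and thioredoxin (Txn1) at -0.55. Malic enzyme (Me1), which supplies NADPH, was the member past 1.5-fold higher, at 313 and 677 units (0.66).

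Progenitor and bile duct genes also held members that were lower. Keratin 19 (Krt19), a keratin of bile duct and progenitor cells, read 87.5 and 47.5 units (-0.65), and Epcam, an adhesion protein of the same cells, 394 and 345 (-0.48). Of 14 measured cholangiocyte markers, 11 lay below 0 with a median of -0.09. Spink1, a trypsin inhibitor, was higher at 87.6 and 215 units (0.69), on wild type with luteolin alone. Alpha-fetoprotein (Afp) lay at -0.17.

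Genes of fat burning leaned higher. Of 47 measured genes of fatty acid oxidation and ketogenesis, 36 had a ratio above 0, with a median of 0.14, 3 past 1.5-fold higher and 1 lower. The thioesterase Acot1 read 556 and 1344 units (0.81), the peroxisomal enzyme Ehhadh 1354 and 2869 (0.64), and the fatty acid carrier Fabp1 12917 and 25945 (0.66). Their transgenic ratios were 0.12, 0.13 and -0.08. Fabp1 was high on wild type with luteolin alone, and fell short of 1.5-fold (0.53) under an alternative scaling, cyclic loess. Cpt1a, which admits fatty acids to mitochondria, lay at 0.14. Fgf21, a fasting hormone, was the member past 1.5-fold lower, at 1761 and 1430 units (-0.65), against 1.19 in the transgenic pair.

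Bile acid genes leaned the same way, with 16 of 21 above 0, a median of 0.18 and 0 past 1.5-fold. Cyp7a1, the rate-limiting enzyme of bile acid synthesis, read 480 and 949 units (0.56, against -0.95 in the transgenic pair), and the racemase Amacr 477 and 923 (0.54). The bile acid importer Slc10a1 lay at 0.42. Lipogenic genes had 15 of 22 above 0 and a median of 0.11, while genes of triglyceride synthesis and lipid droplets had 12 of 29 and -0.02. This last median was 0.09 relative to all genes with each array centred on its median. The median of 26 measured genes of cholesterol synthesis and uptake was -0.05. Relative to all genes it was above 0 under 2 alternatives, at 0.20 with each array centred on its median.

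Of 19 measured apolipoprotein and lipoprotein assembly genes, 10 lay above 0 and the median was 0.07. Relative to all genes it lay between -0.01 and 0.32 over the settings. Apob, the structural protein of liver lipoproteins, had a ratio of 0.29.

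Of the 16 genes lower by 2-fold, 12 lay in 3 blocks of 500 rows of the deposited file (rows 11001 to 11500 and 12001 to 13000), which held 1098 of the 14803 genes. The blocks were defined as stretches with 2 or more genes high or low on a single wild-type array. That they held 14 of the 17 genes low on the luteolin array alone follows from their choice. The 12 of 16 follows from it in part, since most of those 12 genes are low on that array alone. Outside the blocks 4 genes were 2-fold lower: Akr1b8, Gstp1, Gsta5 and Mgp. Of these, Gsta5 and Mgp fell short of 2-fold with each array centred on its median (-0.78 and -0.75) and in the deposited values (-0.89 and -0.92), and Mgp also with a running median along the file subtracted (-0.96). Inside were, among others, the trafficking GTPase Arf3, the Eph receptor ligand Efna1, the interferon-induced Ifi35, the cadherin Fat1, the signalling adaptor Bcl10, the RNA-binding Rbm45, the splicing factor Plrg1, Clns1a, the Krebs cycle enzyme Ogdh and 2 genes with provisional names. Arf3 read 443 and 151 units (-1.55) and Bcl10 232 and 94.1 (-1.18), with transgenic ratios of -0.02 and 0.06.

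Across the file, ratios of rows 1 apart correlated at r = 0.27 over 11177 pairs, at 0.11 for rows 50 apart and at 0.22 for rows 102 apart, the distance with the highest value of those from 60 to 160. These pairs share the 2 arrays and are a description. The same values in the transgenic pair were 0.11, 0.05 and 0.07. The sources do not state whether rows follow positions on the slide, and the part of position in these ratios was not tested. G6pc1, the last enzyme of glucose release (1110 and 2972 units, 0.97), was low on wild type without luteolin alone. Its level there was 10.34, against 11.31 on wild type with luteolin and 11.095 and 11.053 in the transgenic pair. The higher genes G6pc1 and Car3 lay in the blocks too. Mup4l1, Mup5, Cyp2c11 and Cyp2c7 did not.

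**Figure D3:**
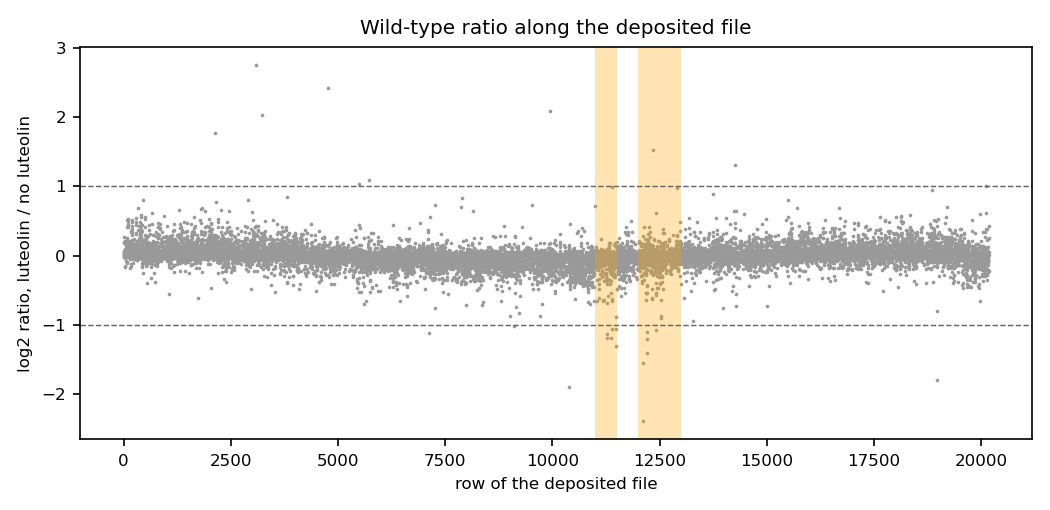
Log2 ratio of luteolin to no luteolin of each gene (upward) against its row in the deposited file (across); dashed lines mark 2-fold and shading the 3 blocks. Of 16 genes 2-fold lower, 12 lie in the shading, which follows in part from how the blocks were chosen.

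Matrix remodelling genes leaned lower. Matrix Gla protein (Mgp), a calcification inhibitor of matrix-producing cells, read 621 and 365 units (-1.02), and -1.49 in the transgenic pair. Of 24 measured metalloproteinases and inhibitors, 4 were past 1.5-fold lower and 0 higher, with a median of -0.04. These were the proteinases Mmp27 (163 and 76.8 units, -0.94) and Mmp12, the macrophage elastase (222 and 139, -0.76), and the inhibitors Timp1 (241 and 156, -0.74) and Timp2 (95.6 and 53.3, -0.67). With each array centred on its median, Mmp27 alone stayed past 1.5-fold (-0.79), with Mmp12, Timp1 and Timp2 at -0.57, -0.55 and -0.54. The transgenic ratios of the 4 were -0.80, -0.96, -0.87 and -0.67.

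Of 16 measured collagens, 13 lay below 0 with a median of -0.10, and 0 were past 1.5-fold. Col3a1 and Col1a1, fibrillar collagens of scar, had ratios of 0.06 and -0.24, against -1.56 and -1.33 in the transgenic pair. Among stellate cell markers the intermediate filament vimentin (Vim) read 305 and 209 units (-0.71), while the list's median over 15 members was -0.01.

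Macrophage markers leaned lower, with 25 of 29 below 0, a median of -0.11 and 1 past 1.5-fold. Lysozyme (Lyz2) read 1557 and 1067 units (-0.87), and -1.22 in the transgenic pair. The adaptor Tyrobp and the receptor Trem2 lay at -0.58 and -0.51, whereas Cd68, a lysosomal protein of macrophages, lay at -0.06 and the Kupffer cell receptors Clec4f and Vsig4 at -0.03 and 0.24. In the deposited normalized values the list's summed intensity was 14859 without and 15191 with luteolin. On that scale the median of all genes was itself 0.19, and the list's median relative to all genes was -0.23.

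Medians of other immune lists lay on both sides of 0. They were 0.12 for 46 complement and coagulation genes (31 above 0) and -0.07 for 24 genes of antigen presentation (17 below 0). Those of 25 T and NK cell and 10 neutrophil markers were 0.01 and -0.03. For 40 interferon-stimulated and 49 cytokine and NF-kB genes they were -0.03 and -0.01. With each array centred on its median, antigen presentation lay at 0.06 and interferon-stimulated genes at 0.08 relative to all genes. The T and NK median lay between -0.11 and 0.08 relative to all genes over the settings. C-reactive protein (Crp) was higher at 440 and 1043 units (0.80), high on wild type with luteolin alone. The iron hormone hepcidin (Hamp) was lower at 14148 and 12030 units (-0.63) and lay in a block. The median of 28 acute phase proteins was -0.07, but 0.14 relative to all genes with each array centred on its median, the 1 alternative above 0.

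Of 57 measured cell cycle and replication genes, 51 lay below 0, with a median of -0.09 and 0 past 1.5-fold. Most were dim: 7 of the 57 reached 50 units on both arrays. The mitotic activator Cdc20 read 54.9 and 40.5 units (-0.35), and the nucleotide-making Rrm2 33.3 and 22.3 (-0.31). Cyclin D1 (Ccnd1), the brighter of these, read 567 and 590 units (-0.30).

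Haemoglobin genes were higher. Of 12 measured erythroid genes 11 lay above 0, 3 of them past 1.5-fold: Hbb at 301 and 742 units (0.85), Hba-a1 at 342 and 798 (0.77) and Hbb-bs at 0.60. Their transgenic ratios were 1.07, 0.99 and 1.09. Globin probes can share transcripts. The other erythroid genes Gata1 and Alas2 read under 5 units on both arrays. The part of blood in the samples was not tested.

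**Figure D4:**
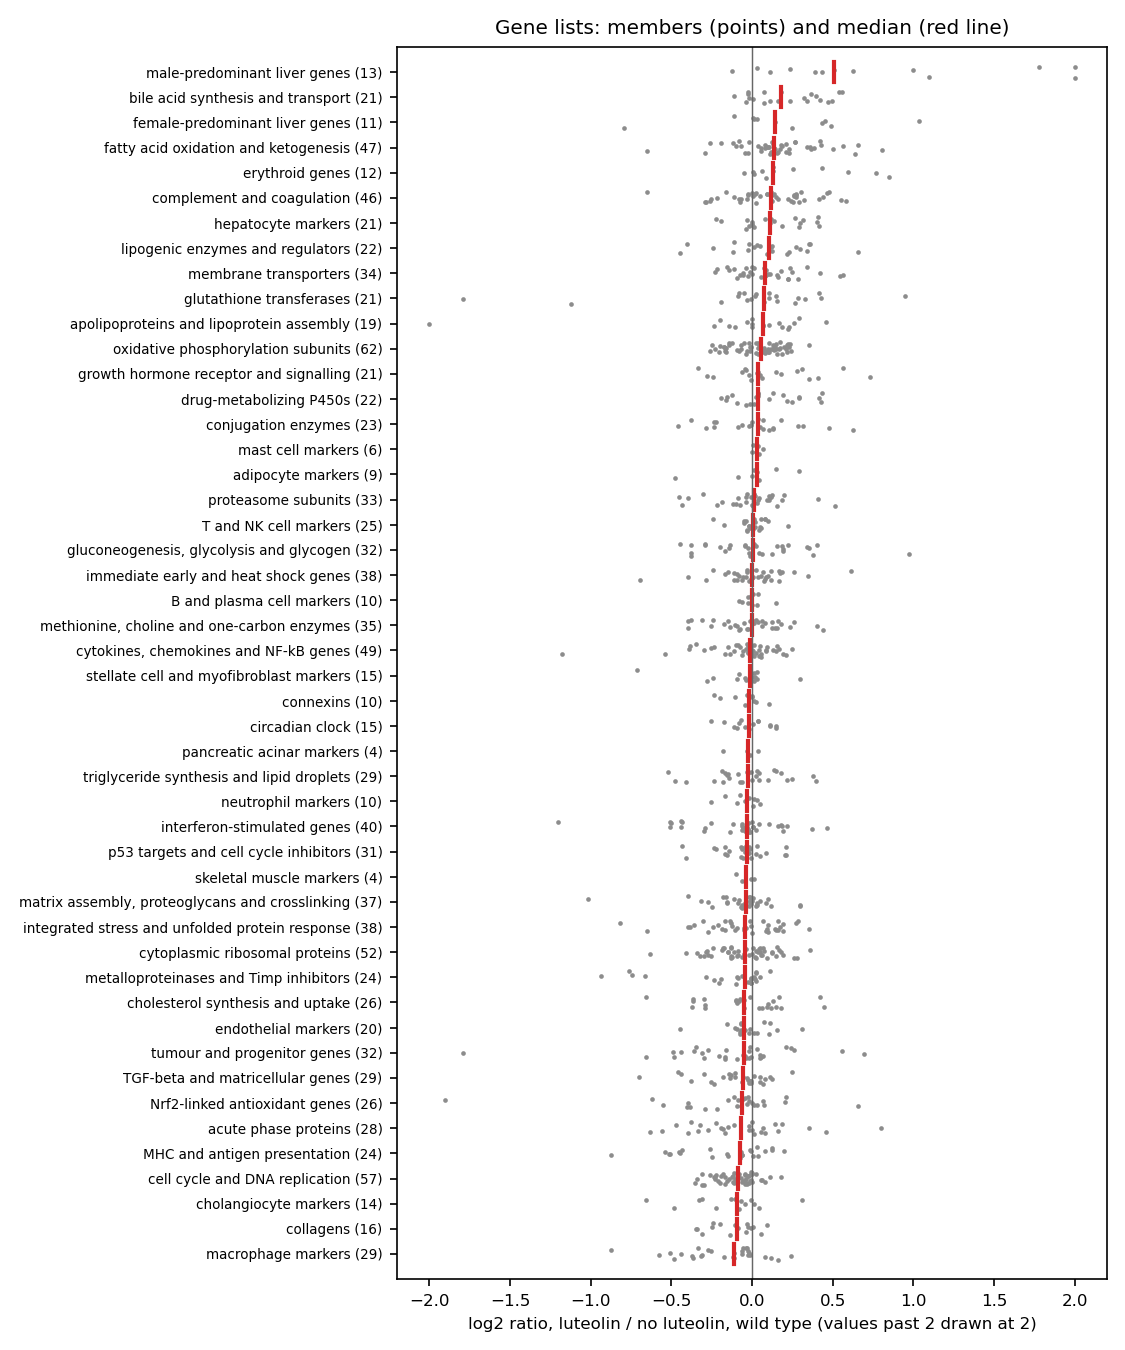
Each row is 1 of 48 gene lists (measured members in brackets), each point a member's log2 ratio of luteolin to no luteolin in wild type, and each red line the list's median; ratios past 2 are drawn at 2. The male-predominant list has the highest median (0.51) and the macrophage list the lowest (-0.11).

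The transgenic pair shares no array with the wild-type pair but was normalized with it. Of the 44 genes higher by 1.5-fold in wild type, 10 were also higher by 1.5-fold in the transgenic pair (22.7% of the 44, 14.3% of its 70). Of the 56 lower, 14 were lower there too (25% of the 56, 9.52% of its 147). In that pair 0.495% of 14132 genes were higher and 1.04% lower by 1.5-fold. Named genes past 1.5-fold in both pairs with the same sign included Cyp2c7, Gstp3, Hbb, Gstp1, Akr1b8, Mgp, Lyz2, Mmp12, Timp1 and Vim. With opposite signs were 4 genes higher and 3 lower in wild type, among them Mup4l1, Sult1e1, Efna1 and Fgf21. The difference between genotypes was not tested, since each ratio rests on 2 arrays.

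**Figure D5:**
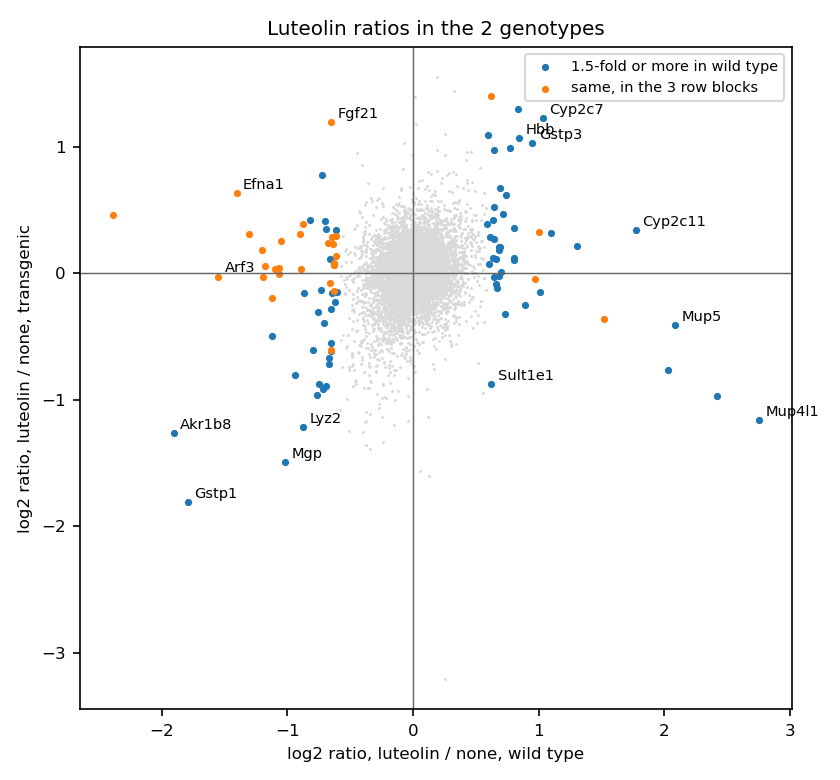
Log2 ratio of luteolin to no luteolin in transgenic rats (upward) against wild type (across), with genes past 1.5-fold in wild type coloured. Drawn are the 14803 genes above background on both wild-type arrays, of which 14132 were above background on all 4. Gstp1, Akr1b8, Cyp2c7 and Gstp3 lie along the diagonal, and Mup4l1 and Mup5 to the lower right.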

How the data were processed

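Each deposited file gave, per the file headers, the intensity of 20174 probes on 1 array in 3 forms (raw, background-subtracted and globally normalized) and a flag. From the values, the authors had subtracted 1 constant an array (37.5 and 38.5 in wild type) from the raw intensity, then scaled to a median of 25. The series table repeats the scaled values, rounded. Total RNA was amplified and labelled with Cy5, per the labels' protocols. Not given in the sources used here are the scanner, its software and the probe sequences.

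Raw intensities were corrected with limma's normexp (offset 50), taken to log2 and quantile normalized over 4 arrays (R 4.3.3, limma 3.58.1). The procedure was tested on simulated arrays, where ratios came back shrunk as the offset predicts. That criterion replaced an earlier one, which the simulation had failed.

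Probes were named through RefSeq's rat gene table: 10610 by curated accession, 3116 by Entrez identifier, 136 by another accession, 1501 and 206 by current symbol or synonym. Another 2511 carry the name in the file. For 1990 there was no name, and 104 were left unnamed because identifier and symbol disagreed. This naming rule was revised after ratios had been seen, in part so that a gene already seen (Lyz2) had a name.

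Genes named are the 20 largest ratios a direction among 11883 genes with non-provisional symbols, the 10 a direction largest over scalings, Gjb1, and in 48 lists members past 1.5-fold or up to 6 of the largest, with all members of the growth hormone lists open to naming. Further list members, such as Afp, Cpt1a, Cd68, Clec4f, Ahsg, Alb and abundant transferases, were chosen after their values were seen. Some genes that the rule names are not reported here, though they are in the counts. The comparison and lists were chosen with earlier results of these data known. The file blocks (500 rows with 2 or more genes of 1 wild-type array alone), promoters, motifs, genes drawn in figures, and the 1.5-fold limit for opposite ratios were also chosen after values were seen. A gene is called high or low on a single array if it lay 0.7 (log2) or more from the median of the other 3, themselves within 0.4. Genes above background on 1 wild-type array only had small bounds (at most at least 1.69-fold, Barhl2). The alternatives are given with their effect in the closing section. The number of arrays, 1 a side, limits the precision.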

Additional observations from a re-analysis of the deposited data

Results flagged for a closer look

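For 4 named genes the luteolin ratio passed 1.5-fold in wild type and 1.5-fold the other way in the transgenic pair. Each rests on 1 array a group, and the difference between genotypes was not tested. Mup4l1 had a ratio of 2.75 in wild type and -1.16 in the transgenic pair. Sult1e1 had 0.62 and -0.88. Efna1 had -1.40 and 0.64, and Fgf21 had -0.65 and 1.19. The spots of Efna1 and Fgf21 lie in the blocks of file rows where low spots of the wild-type luteolin array cluster, and those of Mup4l1 and Sult1e1 do not. With each array centred on its median, Fgf21 no longer passed 1.5-fold in wild type.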

How the results depend on the processing

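No paired analysis was possible because the labels give no replicate numbers and no test was made. The 10 genes higher and 16 lower by 2-fold became 23 and 10 with each array centred on its median, 308 and 91 with background-subtracted values without offset, and 279 and 91 with the deposited normalized values. Limited to genes of at least 50 units on both arrays, an alternative chosen after seeing the data, the deposited values gave 23 and 13. Without the file blocks, 9 were higher and 4 lower. The all-gene median was 0.04, 0.14 and 0.19 under the first 3 of these. The remaining alternatives gave 7 to 13 higher and 15 to 24 lower, among them a running median along the file, also chosen after seeing the data (11 and 15). The 40 genes with the largest ratios kept their sign under every setting that gave a value. Of their 497 values under alternatives, 428 stayed on the same side of 2-fold, 56 passed it and 13 no longer did. Many of the 428 say nothing of stability, since alternatives that change only which genes are kept reuse the main ratio. These were 36 of 36 values at 50 units or more, 40 of 40 above background on all 4 arrays, 40 of 40 without a filter and 25 of 25 without the blocks. The mean of a gene's probes (40 of 40) can differ only for genes with several probes. Of 622 list medians, 140 moved. Dim genes limit the rest: with an offset of 16 the counts were 13 and 24.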
